A study of Mus musculus with 40 samples.

Results

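The genes described here were 37 interferon-stimulated genes, taken by symbol from a named list of antiviral effectors, sensors and regulators, out of 54307 genes in the table of the series. All 37 listed symbols were found, and all 37 had a mean of at least 1 normalised read count in the 20 choroids and in the 20 retinae. They lay on 14 chromosomes and all carried the biotype protein coding in the annotation.

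The series asked how the loss of endothelial TGFβ signalling and the depletion of mononuclear phagocytes change choroidal neovascularisation, the growth of vessels from the choroid through a broken Bruch's membrane. The strain was C57BL/6J, and all mice carried Tgfbr2 fl/fl alleles, the controls included. Tgfbr2ΔEC mice carried in addition a heterozygous Cdh5-CreERT2, a tamoxifen-inducible recombinase driven by an endothelial promoter, and both genotypes received tamoxifen eye drops for 5 days at 6 to 7 weeks of age. A subset of each genotype was fed PLX5622, an inhibitor of the colony stimulating factor 1 receptor that phagocytes of the microglia and macrophage lineage need to survive, from the first tamoxifen drop to the end; the others received control food. Each eye received 6 laser burns, and tissue was taken on day 3. Of the choroid, the middle piece that carried the laser burns was sequenced. The 4 groups were control – PLX, Tgfbr2ΔEC – PLX, control + PLX and Tgfbr2ΔEC + PLX, with 5 mice each, and, as the library names number them, each mouse gave 1 choroid and 1 retina library, which makes 40 libraries of 20 mice of both sexes. Mice are numbered 1 to 5, 6 to 10, 11 to 15 and 16 to 20 in this order of groups.

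Interferons are secreted proteins that warn neighbouring cells of infection or damage. Type I interferons bind the receptor pair Ifnar1 and Ifnar2, whose kinases Jak1 and Tyk2 start a signal that reaches the nucleus through Stat2 and Irf9, parts of a complex that binds the interferon-stimulated response element in promoters and switches on a shared programme of genes. The programme includes proteins that bind or cut viral RNA (the Ifit and Oas families, Eif2ak2), proteins that block entry, release or replication (Ifitm3, Bst2, Rsad2, the Mx family), the ubiquitin-like protein Isg15 with its enzymes, and parts of the pathway itself (Stat2, Irf9, Irf7, Usp18). Microglia and macrophages are known both to make interferon and to respond to it.

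The promoters of 6 members are shown because 3 of them belong to genes that differed with the diet (Oas3, Oas1a, Ddx60) and 3 to genes of the Ifit family that did not pass the test. Each runs from 250 bases before to 50 bases after the start of the gene in RefSeq on GRCm38.p6, is written 5′ to 3′ on the strand of the gene, and has in capitals every match to GAAA, any 2 bases and GAAA again, a core of the interferon-stimulated response element named the paired GAAA motif here, searched on both strands with overlapping matches counted. A match on the other strand, as in the Ifit genes, reads TTTC, 2 bases and TTTC.
Oas3 promoter, chr5:120777610-120777909, minus strand: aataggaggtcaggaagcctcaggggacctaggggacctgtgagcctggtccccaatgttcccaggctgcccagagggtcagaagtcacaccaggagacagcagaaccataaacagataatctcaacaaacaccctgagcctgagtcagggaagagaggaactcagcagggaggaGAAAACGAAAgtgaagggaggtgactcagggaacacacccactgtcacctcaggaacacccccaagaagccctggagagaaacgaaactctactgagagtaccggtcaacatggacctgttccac
Oas1a promoter, chr5:120907476-120907775, minus strand: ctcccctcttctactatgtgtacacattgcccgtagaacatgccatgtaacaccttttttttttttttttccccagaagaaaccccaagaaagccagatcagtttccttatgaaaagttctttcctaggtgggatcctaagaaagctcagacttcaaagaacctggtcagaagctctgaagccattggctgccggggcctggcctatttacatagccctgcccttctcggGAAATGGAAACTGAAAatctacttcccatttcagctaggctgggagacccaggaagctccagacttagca
Ddx60 promoter, chr8:61927837-61928136, plus strand: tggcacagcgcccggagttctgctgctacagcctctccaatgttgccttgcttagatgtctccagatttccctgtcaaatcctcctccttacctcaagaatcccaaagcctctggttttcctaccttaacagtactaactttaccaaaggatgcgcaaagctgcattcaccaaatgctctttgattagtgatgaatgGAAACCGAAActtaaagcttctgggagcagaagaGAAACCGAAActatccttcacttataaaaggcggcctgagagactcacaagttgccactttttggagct
Ifit1 promoter, chr19:34640639-34640938, plus strand: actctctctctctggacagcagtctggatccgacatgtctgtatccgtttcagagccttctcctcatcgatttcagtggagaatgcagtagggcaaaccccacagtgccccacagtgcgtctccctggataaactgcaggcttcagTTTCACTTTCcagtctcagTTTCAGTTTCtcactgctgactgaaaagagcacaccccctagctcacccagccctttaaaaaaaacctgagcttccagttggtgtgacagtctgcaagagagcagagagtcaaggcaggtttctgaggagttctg
Ifit3 promoter, chr19:34583279-34583578, plus strand: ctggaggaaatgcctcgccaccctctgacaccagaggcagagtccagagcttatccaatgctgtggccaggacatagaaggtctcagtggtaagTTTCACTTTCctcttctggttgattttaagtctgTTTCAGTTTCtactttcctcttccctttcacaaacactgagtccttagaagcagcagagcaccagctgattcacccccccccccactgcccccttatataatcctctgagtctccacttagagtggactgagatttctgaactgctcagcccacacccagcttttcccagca
Ifit3b promoter, chr19:34607707-34608006, plus strand: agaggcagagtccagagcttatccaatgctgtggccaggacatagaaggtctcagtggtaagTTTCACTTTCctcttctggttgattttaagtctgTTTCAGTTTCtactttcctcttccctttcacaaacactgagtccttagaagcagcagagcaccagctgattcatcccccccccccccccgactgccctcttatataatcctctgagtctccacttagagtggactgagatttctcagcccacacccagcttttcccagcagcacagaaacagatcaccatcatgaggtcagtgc
The paired GAAA motif was found in 14 of the 27 members with an entry in the promoter table, 51.9%, against 3.99% of all 27025 genes in that table, a gene being counted where any of its promoters held the motif. Among the members that were lower in choroid with PLX, 4 of the 7 with an entry held the paired GAAA motif (57.1%), and among those that did not pass the test 10 of 20 did (50%). The 4 members lower with PLX that held it were Oas3, Oas1a, Ddx60 and Trim30a, whereas Dtx3l, Oasl1 and Irf7, also lower, had no match. In the Ifit family it was present in Ifit1, Ifit3 and Ifit3b, and Ifit2 had no match in either of its entries. Oas2, Zbp1, Ifi27l2a, Dhx58, Parp14, Mx1, Mx2, Rtp4, Parp9 and Usp18 had no entry.

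Depth, estimated from the step that 1 read made in the normalised values, came to 21492843 to 28569426 reads per choroid library and 20987041 to 30524010 per retina library, so the libraries of a tissue were of similar depth. Mononuclear phagocyte markers were lower with PLX in both tissues, by a median of 2.60 on the log2 scale for the 15 markers in choroid and 5.40 in retina. Tgfbr2 itself was not measurably lower in bulk Tgfbr2ΔEC tissue, with a log2 difference of -0.05 (limma, adjusted p = 0.925) in choroid and -0.32 (adjusted p = 0.985) in retina without PLX, so the deletion cannot be read from these libraries. Markers of neural retina varied widely between choroids, with a mean log2 level of 9.49 ± 1.20 (SD, n = 5) in control – PLX and 11.86 ± 0.66 in Tgfbr2ΔEC – PLX choroids. One choroid, that of mouse 17 in the Tgfbr2ΔEC + PLX group, stood apart from the other PLX choroids in interferon-stimulated genes, and results that rest on it are given with and without it. It was singled out after its values were seen.

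In the choroid, 12 of the 37 interferon-stimulated genes were lower in PLX-fed than in control-fed mice over both genotypes, and 0 were higher (limma, adjusted p at or under 0.05). Over all 23619 genes tested in choroid, 5.06% were lower by the same rule. The largest differences were in the Oas family, enzymes that answer double-stranded RNA by making short oligoadenylates which switch on RNase L. The other 9 genes were Zbp1, Trim30a, Ddx60, Dhx58, Ifi27l2a, Dtx3l, Parp14, Oasl1 and Irf7. The Ifit family, the other large group of RNA-binding effectors, had 0 of 4 members called. The median log2 difference of the 37 members was -0.29, against a median of 0.00 over all genes, and 32 of 37 lay below 0, with a range from -2.46 to 0.35. At an unadjusted p under 0.05 there were 19 members, where 19.3% of all genes passed. Of these members 1, Ifit3, was higher, and without mouse 17 it did not reach this level (limma, unadjusted p = 0.071). These were bulk tissue samples, in which fewer cells of a type and less RNA per cell cannot be told apart. Alongside, 14 of 15 mononuclear phagocyte markers were lower in PLX choroids, and their summed level ranged from 87472 to 110214 normalised read counts without and from 25818 to 54485 with PLX. Of 4 monocyte markers 1 was lower, with summed levels of 2430 to 4576 without and 826 to 1797 with PLX. Of 3 plasmacytoid dendritic cell markers 2 were lower, with sums of 398 to 1721 and 156 to 1493, and of 4 neutrophil markers 1 was lower. Of 5 endothelial markers 3 were higher, with sums of 13560 to 16658 without and 14772 to 19824 with PLX. All 10 neural retina markers lay below 0, from -1.70 to -0.25 with a median of -1.12, and 0 were called. Apart from a fit with scores for sex genes and neural retina markers, the part of these cell types in the differences of the interferon-stimulated genes was not tested.

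**Figure D1:**
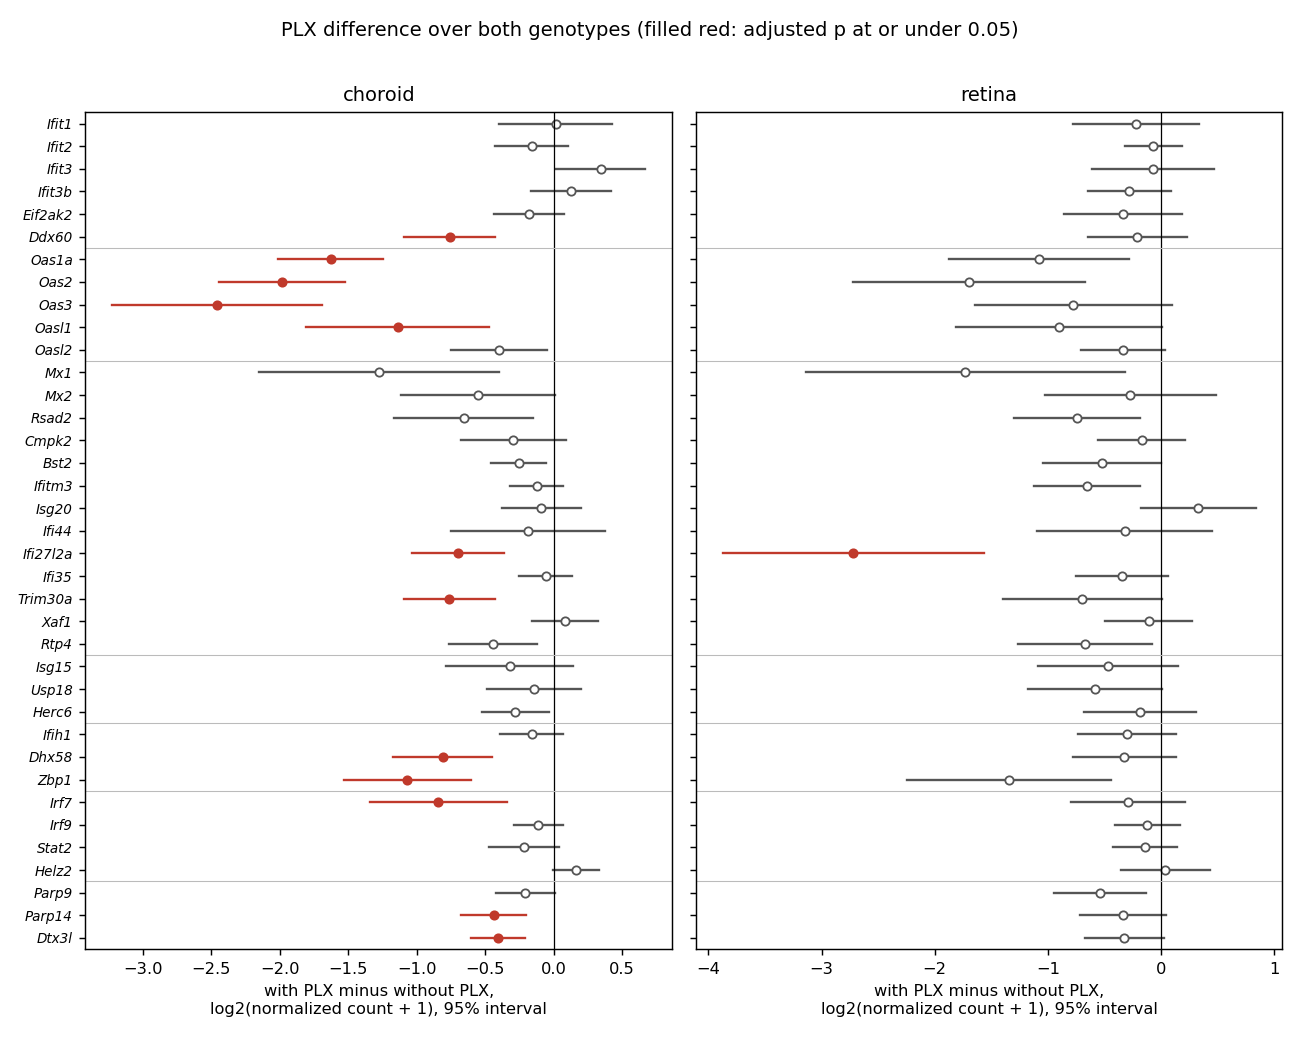
Log2 difference between PLX-fed and control-fed mice over both genotypes for each of the 37 genes in choroid and in retina, with 95% intervals, 10 mice per diet; filled red points passed the test (adjusted p at or under 0.05). In choroid the Oas genes lie farthest to the left, Oas3 at -2.46, Oas2 at -1.98 and Oas1a at -1.63, while Ifit1 lies at 0.02; in retina Ifi27l2a, at -2.72, is the single filled point.

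Oas2 had 539.5, 449, 871, 757 and 441 normalised read counts in the control – PLX choroids and 397, 582, 502, 666 and 487 in the Tgfbr2ΔEC – PLX choroids. With PLX it had 141, 149, 109, 128 and 91.1 in controls and 83.3, 446, 140.4, 136 and 140.2 in Tgfbr2ΔEC mice. All PLX choroids but that of mouse 17 lay below every choroid without PLX. The mean was 569 ± 152 (SD, n = 10) without and 156 ± 104 with PLX, a log2 difference of -1.98 with a standard error of 0.22 (limma, adjusted p = 1.6e-06). Oas1a fell from 413, 471, 557, 504 and 369 in control – PLX and 385, 452, 438, 452 and 274 in Tgfbr2ΔEC – PLX choroids to 132, 149.8, 178, 89.8 and 87.2 in control + PLX and 107, 339, 129, 124 and 142 in Tgfbr2ΔEC + PLX choroids. Again only mouse 17 overlapped the mice without PLX, and the log2 difference was -1.63 ± 0.19 (SE, adjusted p = 2.2e-06). Part of the Oas1a transcript, 33.7% of its length, is 96.9% identical to Oas1g, so the reads of these genes may have been split between them; Oas1g itself had a log2 difference of -2.32 (adjusted p = 1.35e-05).

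Oas3, the largest synthetase of the family, had the largest log2 difference of all members. It had 144, 212, 396, 252 and 106 normalised read counts in control – PLX and 120.1, 243, 137, 339.6 and 93.9 in Tgfbr2ΔEC – PLX choroids. With PLX the values were 39.8, 17.8, 47.2, 24.3 and 21.2 in controls and 17.3, 182, 27.9, 21.8 and 37.2 in Tgfbr2ΔEC mice. Other than in mouse 17 the highest PLX choroid was at 47.2, and the lowest choroid without PLX at 93.9, so the diets did not overlap once that mouse was set aside. The log2 difference was -2.46 ± 0.37 (SE, adjusted p = 8.59e-05). Oas2, Oas3 and Oas1a are neighbours on chromosome 5 (chr5:120868398-121046449, GRCm39). The related Oasl1 and Oasl2 lie in another cluster on chromosome 5 (chr5:115034997-115075974). Oasl1, which lacks synthetase activity and restrains the translation of Irf7, had a log2 difference of -1.14 ± 0.32 (adjusted p = 0.0332). Oasl1 spanned 42.7 to 180.2 normalised read counts without PLX and 21.4 to 151 with it, the last in mouse 17. Oasl2 did not pass the test, at -0.40 (95% interval from -0.75 to -0.05, adjusted p = 0.187).

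Ifit1, Ifit2, Ifit3 and Ifit3b, which encode proteins with tetratricopeptide repeats that bind foreign RNA ends or support those that do, did not pass the test. Ifit1 had 716, 639, 932, 699 and 516 normalised read counts in control – PLX, 538, 1036, 558, 819 and 449 in Tgfbr2ΔEC – PLX, 549, 564, 495, 522 and 554 in control + PLX and 612, 2066, 559, 645 and 968 in Tgfbr2ΔEC + PLX choroids. The diets overlapped throughout, and the highest of the 20 choroids was the PLX-fed mouse 17. The log2 difference was 0.02 with a 95% interval from -0.40 to 0.43 (adjusted p = 0.982). Ifit3 had 1589, 2514, 2217, 1475 and 1406 in control – PLX, 1429.5, 2016, 1337, 1664 and 1479 in Tgfbr2ΔEC – PLX, 1888, 1789, 1686, 2072 and 1849.7 in control + PLX and 1866, 4897, 1688, 2130.3 and 2664 in Tgfbr2ΔEC + PLX choroids. Its log2 difference was 0.35, with a 95% interval from 0.02 to 0.67 and an adjusted p of 0.226. Without mouse 17 it was 0.22 (limma, unadjusted p = 0.071, adjusted p = 0.321). Ifit2 was at -0.16 and Ifit3b at 0.13. Ifit3 and Ifit3b are 97.2% identical over 99.4% of the shorter Ifit3b transcript, so each is uncertain on its own. The 4 genes stand side by side on chromosome 19 (chr19:34527932-34632174, GRCm39).

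**Figure D2:**
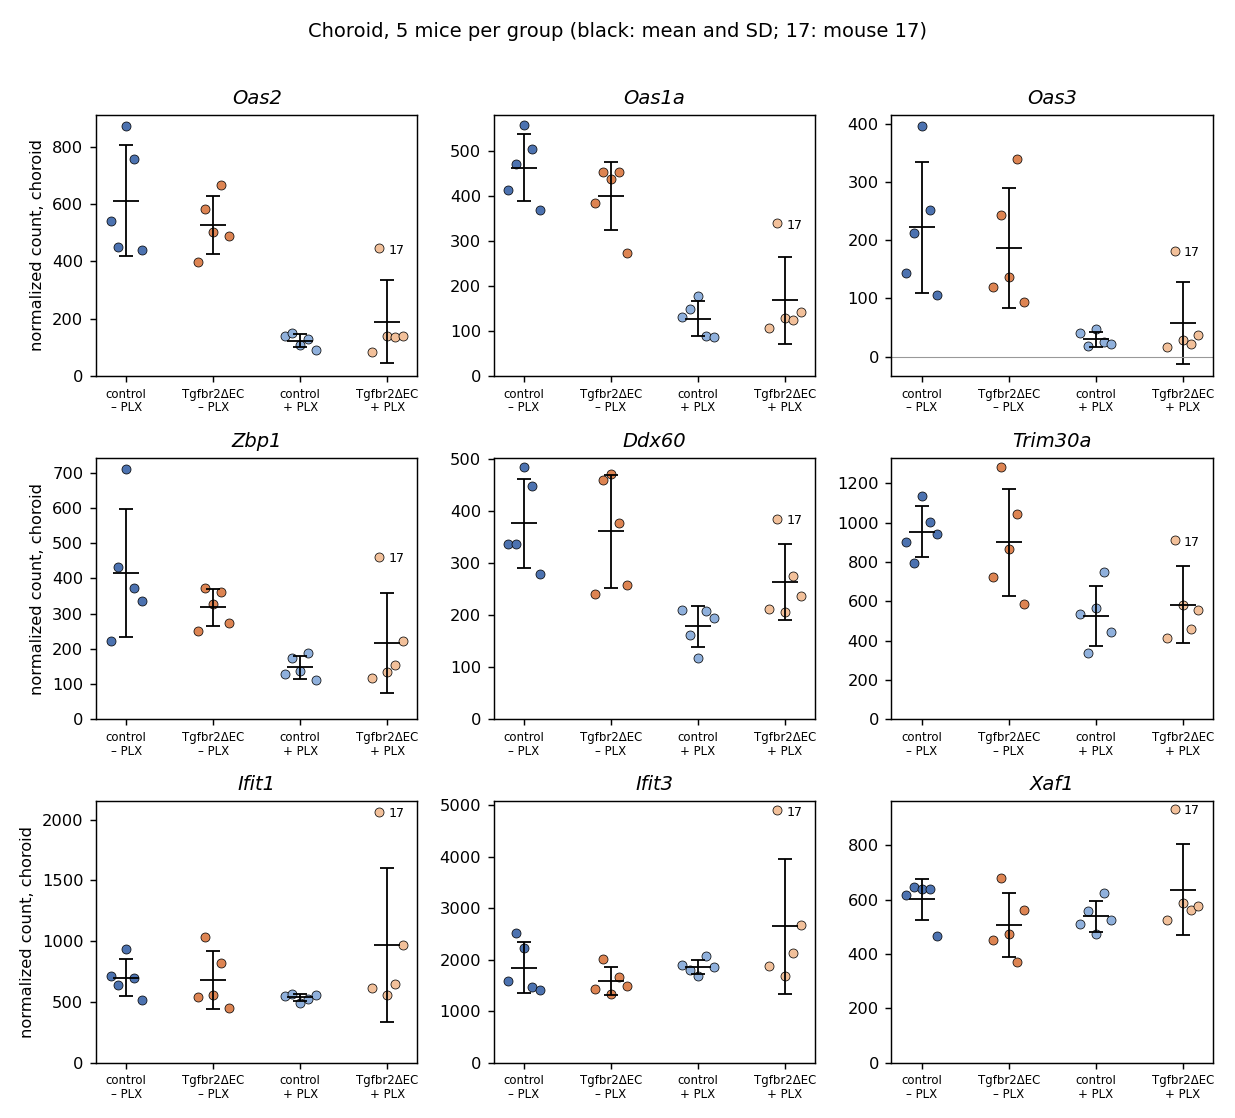
Normalised read count in each of the 20 choroids for Oas2, Oas1a, Oas3, Zbp1, Ddx60, Trim30a, Ifit1, Ifit3 and Xaf1 by group, 5 mice per group, with the mean and SD; mouse 17 is marked. In the Tgfbr2ΔEC + PLX group mouse 17 lies far above the other 4 mice for the Oas genes, at 446 against 83.3 to 140.4 for Oas2, and for the Ifit genes, at 2066 against 559 to 968 for Ifit1.

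Several cytosolic sensors of nucleic acid were lower with PLX. Zbp1, which binds left-handed nucleic acid and can start necroptosis, had 222, 432, 709.8, 374 and 336 normalised read counts in control – PLX and 251, 373, 328, 361 and 274 in Tgfbr2ΔEC – PLX choroids. With PLX it had 129, 175, 137, 187 and 110.1 in controls and 116, 462, 134, 153 and 221 in Tgfbr2ΔEC mice. Without mouse 17 the highest PLX choroid, at 221, was just below the lowest choroid without PLX, at 222. The log2 difference was -1.07 ± 0.22 (SE, adjusted p = 0.00326). Dhx58, a helicase that tunes the RNA sensors Ddx58 and Ifih1, had 262, 400.4, 417, 298 and 269 in control – PLX, 229.6, 439.6, 314, 325 and 269 in Tgfbr2ΔEC – PLX, 135, 210.2, 131, 160.1 and 159 in control + PLX and 196, 429, 157, 158 and 176 in Tgfbr2ΔEC + PLX choroids. It was separated in the same way, with a log2 difference of -0.81 ± 0.17 (adjusted p = 0.00391). Ddx60, a helicase linked to RNA sensing, had 336, 335, 483, 447 and 279.6 in control – PLX, 241, 458, 471, 377 and 258 in Tgfbr2ΔEC – PLX, 210.2, 161, 117, 208 and 194 in control + PLX and 211, 385, 206, 275 and 237 in Tgfbr2ΔEC + PLX choroids. The control diets did not overlap, whereas the Tgfbr2ΔEC diets did, and the difference over both was -0.76 ± 0.16 (adjusted p = 0.00368). Ifih1, itself an RNA sensor, did not pass the test (-0.16), nor did Eif2ak2, the kinase that halts translation on double-stranded RNA (-0.18).

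Trim30a, a ubiquitin ligase of the tripartite motif family, had 899, 792, 1138, 1004 and 941 normalised read counts in control – PLX, 721, 1282, 867, 1043 and 585 in Tgfbr2ΔEC – PLX, 536, 339.5, 567, 749.7 and 446 in control + PLX and 413, 909, 579, 457 and 554 in Tgfbr2ΔEC + PLX choroids. In controls every PLX choroid was below every choroid without PLX, and over both genotypes the log2 difference was -0.76 ± 0.16 (SE, adjusted p = 0.00361). Of the Trim30a transcript 32.7% matches Hexd at 96.5% identity, so its reads too may have been split. Ifi27l2a, a small membrane protein of the Ifi27 family, had 869, 1078, 1479, 1344 and 1049 in control – PLX, 690.1, 1051, 910.0, 1027 and 1097 in Tgfbr2ΔEC – PLX, 517, 968, 527, 646 and 578 in control + PLX and 435, 978, 992, 533 and 522 in Tgfbr2ΔEC + PLX choroids. Mice 12, 17 and 18 were the PLX choroids within the range of those without PLX, and the log2 difference was -0.70 ± 0.16 (adjusted p = 0.00803). Dtx3l, a ubiquitin ligase that pairs with Parp9, and Parp14, an ADP-ribosyltransferase, had smaller differences of -0.40 ± 0.09 (adjusted p = 0.0092) and -0.44 ± 0.11 (adjusted p = 0.0185). Parp9, whose gene starts 681 bases from that of Dtx3l, did not pass the test at -0.21.

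Among the regulators, Irf7, the factor that amplifies the production of type I interferon, had 505, 787, 2052, 672 and 529 normalised read counts in control – PLX, 518, 1012, 503, 877 and 417 in Tgfbr2ΔEC – PLX, 304, 414, 353, 268 and 256 in control + PLX and 362, 963, 466, 433 and 379 in Tgfbr2ΔEC + PLX choroids. Mouse 3, at 2052, lay far above the other controls. The log2 difference was -0.84 ± 0.24 (SE, adjusted p = 0.0351), which together with Oasl1 was the least secure of the 12: each lost its call in 11 of 29 alternatives, with an adjusted p of up to 0.0703 for Irf7 and 0.0691 for Oasl1. The other 10 genes kept theirs in 29 of 29. Stat2 (-0.21) and Irf9 (-0.11), which act in the complex that binds the response element, did not pass the test, and neither did Usp18 (-0.14), which removes Isg15 from proteins and restrains the receptor.

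The remaining antiviral effectors did not pass the test in choroid, unlike Ifi27l2a and Trim30a. Ifitm3, which blocks fusion of viruses with endosomes, differed by -0.12, and Bst2, which tethers budding virions, by -0.26 (adjusted p = 0.134). Rsad2 and Cmpk2, neighbours on chromosome 12 (chr12:26492745-26529836) that together make a chain-terminating nucleotide, had log2 differences of -0.66 (adjusted p = 0.126) and -0.29. Mx1, whose protein is defective in most inbred laboratory mice, was at -1.27 (95% interval from -2.15 to -0.40, adjusted p = 0.0739) and Mx2 at -0.55 (adjusted p = 0.27). Part of the Mx1 transcript, 14.1%, is 93.3% identical to Mx2. Isg15 was at -0.32 (adjusted p = 0.477); 61.6% of its transcript matches Gm9706 at 95.2% identity, so that its level is uncertain. Herc6, the ligase that attaches Isg15 in mice, was at -0.28, Rtp4 at -0.44 (adjusted p = 0.0953), Isg20 at -0.09, Ifi35 at -0.06, Ifi44 at -0.19, Xaf1 at 0.09 and Helz2 at 0.16.

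By genotype, 11 of the 37 genes were lower with PLX in control choroids, where 3.15% of all genes were lower, and 3 in Tgfbr2ΔEC choroids, where 3.5% of all genes were lower. In controls these were Oas2 (-2.26), Oas1a (-1.89), Oas3 (-2.80), Ddx60 (-1.08), Zbp1 (-1.41), Dhx58 (-1.04), Dtx3l (-0.57), Parp14 (-0.63), Trim30a (-0.89), Irf7 (-1.31) and Ifi27l2a (-0.86), with adjusted p from 5.34e-05 to 0.0348 (limma). In Tgfbr2ΔEC mice they were Oas2 (-1.70, adjusted p = 0.00166), Oas1a (-1.36, adjusted p = 0.00274) and Oas3 (-2.12, adjusted p = 0.0212). The median of the members was -0.57 in controls, with 35 of 37 below 0, and -0.12 in Tgfbr2ΔEC mice, with 29 of 37 below 0. The control count was 6 without mouse 3 and 7 without mouse 15. The Tgfbr2ΔEC count was 2, with Oas3 no longer called, without mouse 7, 9, 16, 18 or 19, and 6 without mouse 17, which added Trim30a, Dhx58 and Zbp1.

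Whether the response to PLX differed between genotypes was asked directly by the interaction. For 0 of 37 members did the interaction pass the test in choroid (limma), as for 0% of all genes, and 1 had an unadjusted p under 0.05, where 6.57% of all genes did. All 37 estimates lay above 0, where 48.8% of all genes did, from 0.02 to 0.98 with a median of 0.39, that is, the log2 difference with PLX was less negative or more positive in Tgfbr2ΔEC mice. The lowest unadjusted p was that of Xaf1, a partner of the apoptosis inhibitor Xiap. Xaf1 had 616, 645, 639, 638 and 468 normalised read counts in control – PLX, 450.4, 679, 471, 369 and 561 in Tgfbr2ΔEC – PLX, 509, 558, 474, 625 and 523.97 in control + PLX and 524.2, 934, 587, 561 and 576 in Tgfbr2ΔEC + PLX choroids. Its interaction was 0.48 (unadjusted p = 0.0477, adjusted p = 0.75), followed by Oasl2 at 0.67 (adjusted p = 0.789) and Ddx60 at 0.64 (adjusted p = 0.792). The 10 neural retina markers had interactions from -3.10 to -1.36 with a median of -2.42, and 0 of them passed the test. With scores for sex genes and neural retina markers added to the fit, the interaction passed for 0 members as well. The part of these markers in the estimates of the members was not tested further. Without mouse 17 the median interaction of the members was 0.18, 3 of 37 lay below 0, and 0 had an unadjusted p under 0.05.

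Mouse 17 was the highest of the 10 PLX choroids for 32 of the 37 genes, where it was highest for 7.97% of all genes. The mean log2 level of the 37 members was 9.81 in its choroid, between 8.44 and 8.91 in the other 9 PLX choroids and between 8.95 and 9.74 in the 10 choroids without PLX. So this PLX-fed mouse carried the highest level of the programme among the 20 choroids. In the choroid of mouse 17 the mean log2 level of the mononuclear phagocyte markers was 9.40, within the 8.74 to 9.69 of the other PLX choroids. Its monocyte markers stood at 8.56, against 7.43 to 8.53 in the others, and its plasmacytoid dendritic cell markers at 5.85, within 4.30 to 6.06; the part of these in its interferon-stimulated genes was not tested. Among the genes for interferon itself, Ifnb1 was at 2.02 normalised read counts in mouse 17 and 0 in the other 9 PLX choroids, which is under the level of 3 reads. In choroids without PLX it ranged from 0 to 3.04. Ifnz, the ligand gene abundant enough to test, was at 12.9 in the choroid of mouse 17, the highest of the 40 libraries and above that level. It was at 0 to 9.48 in the other 9 PLX choroids and 0 to 5.77 in those without PLX, with 0 in mice 3 and 7. The part of these ligands was not tested. In the retina of mouse 17 the mean log2 level of the members was 6.62, against 5.46 to 6.38 in the other 9 PLX retinae, and that of the mononuclear phagocyte markers was 3.08, against 1.81 to 2.75. Its monocyte markers stood at 1.82 there, against 0 to 0.952; the part of these was not tested.

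**Figure D3:**
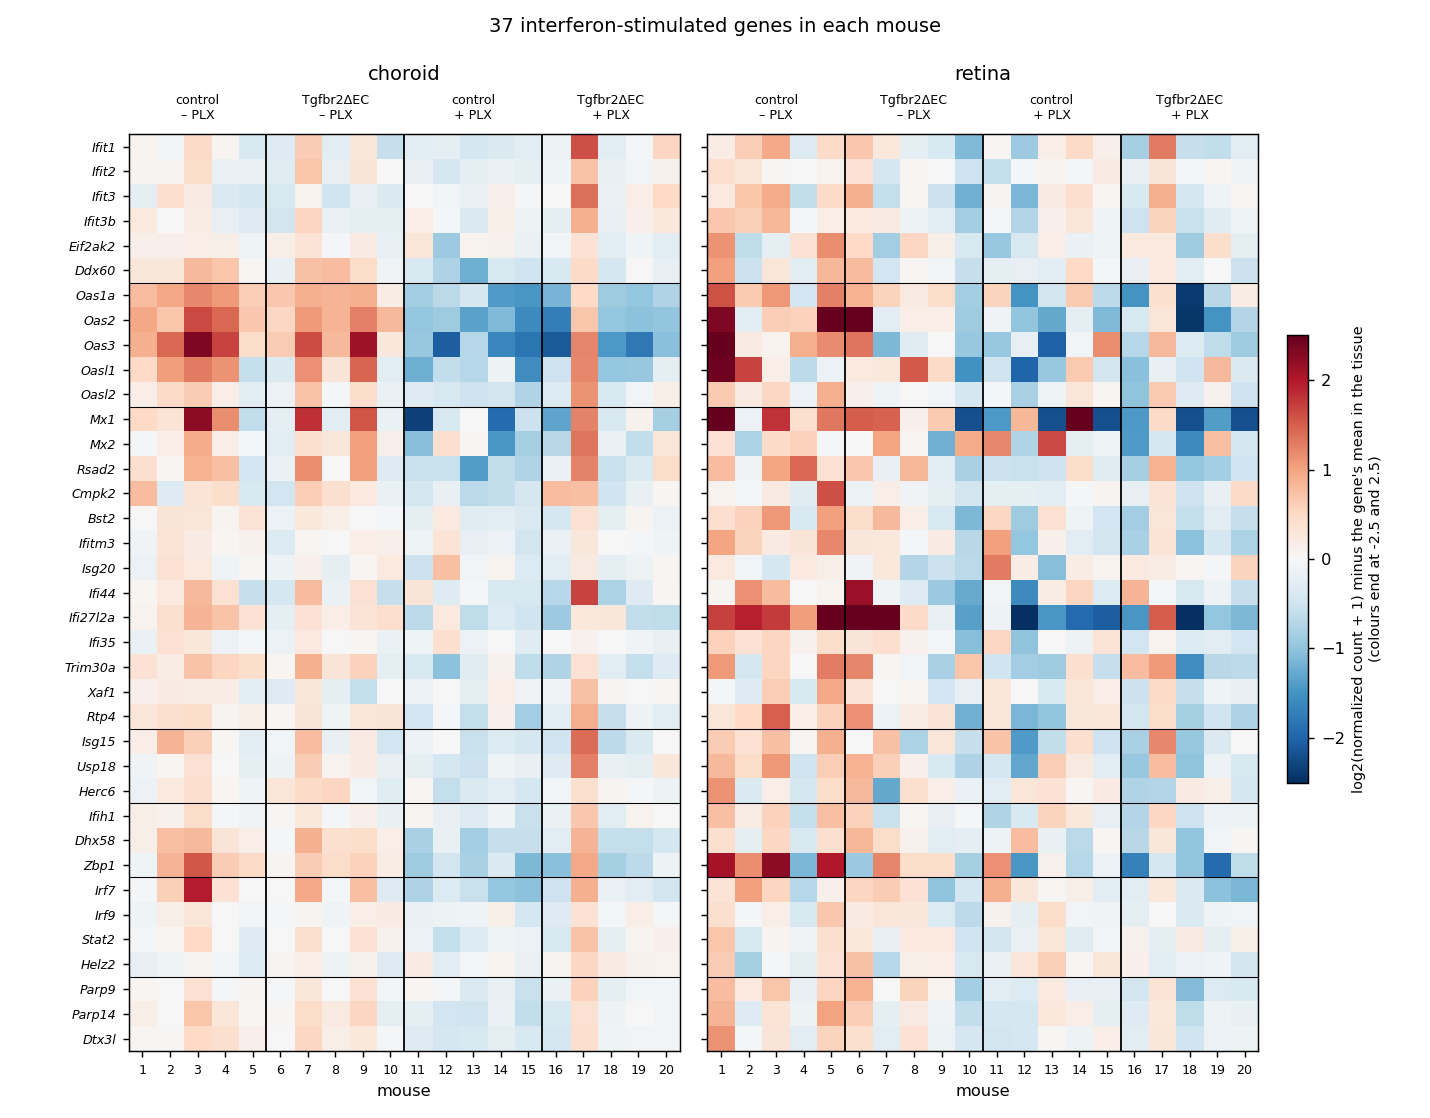
Log2 level of each of the 37 genes in each of the 20 mice minus the mean of that gene over the 20 libraries of the tissue, choroid and retina, with mice ordered by group. In choroid the column of mouse 17 is above the gene mean for most genes while the other PLX-fed mice are mostly below it; mice 3 and 7 are the highest of the mice without PLX.

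Leaving out mouse 17 raised the number of members lower with PLX in choroid to 17 over both genotypes (4.95% of all genes), 14 in controls (3.1%) and 6 in Tgfbr2ΔEC mice (2.87%). The genes added over both genotypes were Oasl2, Mx1, Rsad2, Bst2 and Rtp4. The log2 differences of Oas2, Oas1a and Oas3 were then -2.17, -1.77 and -2.74. With all mice, 0 members had every PLX choroid below every choroid without PLX, as 1.75% of all genes did. Without mouse 17, 6 did so, namely Oas1a, Oas2, Oas3, Dhx58, Zbp1 and Dtx3l, against 1.87% of all genes. Among the mice without PLX, mouse 3 was the highest of 10 choroids for 14 members, against 8.3% of all genes, and mouse 7 for 12, against 9.68%; mouse 3 was likewise singled out after its values were seen.

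Endothelial deletion of Tgfbr2 was compared with the control within each diet. In choroid without PLX 0 of 37 members differed (limma, 0 at an unadjusted p under 0.05, where 9.25% of all genes were), as 0.00423% of all genes did, which was 1 gene. The median difference was -0.08. The lowest p was that of Xaf1, at -0.27 (limma, adjusted p = 0.697), followed by Ifi27l2a at -0.28 and Bst2 at -0.16. Bst2 had 1577, 1976, 1942, 1653 and 1984 normalised read counts in control – PLX and 1423, 1879, 1742, 1588 and 1546 in Tgfbr2ΔEC – PLX choroids, which overlapped. The mean log2 level of the neural retina markers was 9.49 in the first and 11.86 in the second of these groups. With scores for sex genes and neural retina markers added to the fit, 0 members differed as well. The part of the neural retina in the comparison was not tested further. In choroid with PLX 0 members differed by the adjusted p, as again 0.00423% of all genes did, while 8 had an unadjusted p under 0.05, as 3.76% of all genes did, and 35 of 37 estimates lay above 0, as 50.3% of all genes did, with a median of 0.32. Rsad2 (viperin) had 249.95, 250.3, 140.1, 240.5 and 219 normalised read counts in control + PLX and 331, 870.0, 249.95, 287 and 506 in Tgfbr2ΔEC + PLX choroids, so that the groups overlapped in 1 mouse. It differed by 0.90 (unadjusted p = 0.0174, adjusted p = 1). Oasl2 had 1055, 1004, 919, 959.9 and 782 in control + PLX and 1045, 2872, 1017, 1254 and 1464 in Tgfbr2ΔEC + PLX choroids, a difference of 0.59 (adjusted p = 1). Cmpk2 had 323, 386, 274, 288 and 326 in control + PLX and 754, 735, 310.4, 386 and 451 in Tgfbr2ΔEC + PLX choroids, a difference of 0.64 (adjusted p = 1). Without mouse 17 the median of the members was 0.13, and 0 had an unadjusted p under 0.05.

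In retina 0 members differed by genotype without PLX (median -0.46, 1 at an unadjusted p under 0.05 and 3.26% of all genes) or with PLX (median -0.11, 1 at an unadjusted p under 0.05 and 2.71% of all genes), and the percentage over all genes was 0 in both. Without PLX all 15 mononuclear phagocyte markers lay below 0 as well, from -1.99 to -0.06 with a median of -0.27, and the 4 monocyte markers had a median of -1.45, with 0 called; their part was not tested. The lowest unadjusted p without PLX was that of Ifit3b, which had 336, 321, 377, 205 and 238 in controls and 249, 249, 192, 174 and 116 in Tgfbr2ΔEC retinae, a difference of -0.60 (adjusted p = 0.985); Oasl2 (-0.52) and Oas3 (-1.20) followed. With PLX it was that of Irf7, which had 786, 511, 426, 467 and 344 in controls and 347, 507, 328, 205 and 189 in Tgfbr2ΔEC retinae, a difference of -0.72 (adjusted p = 1). Mx2, with 68.4, 17.1, 93.6, 24.8 and 27.1 against 10.3, 21.8, 9.02, 50.2 and 21.7, followed at -0.97, and Zbp1 at -0.91. In each case the genotypes overlapped.

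In the retina, 1 of the 37 genes, Ifi27l2a, was lower with PLX over both genotypes and 0 were higher, where 1.08% of all 23243 genes tested were lower (limma); 9 members had an unadjusted p under 0.05, where 6.28% of all genes did. The median of the members was -0.33; 2 of 37 lay above 0, where 50.8% of all genes did. Ifi27l2a had 24.7, 29.2, 25.3, 15.3 and 71.95 normalised read counts in control – PLX, 43.0, 45.1, 10.05, 5.90 and 2.07 in Tgfbr2ΔEC – PLX, 6.10, 0, 1.86, 1.06 and 0.877 in control + PLX and 1.87, 21.4, 0, 3.03 and 2.61 in Tgfbr2ΔEC + PLX retinae. In controls the diets did not overlap, and in Tgfbr2ΔEC mice mouse 10 without PLX lay among the PLX retinae and mouse 17 with PLX lay high. Several values were near the 2.23 to 3.37 normalised read counts that 3 reads were worth in these libraries, so fold changes of this gene are understated on the log2 scale with 1 added. The difference was -2.72 ± 0.55 (SE, adjusted p = 0.00987). All 15 mononuclear phagocyte markers were lower in PLX retinae, and 10 of 15 had a median under 5 normalised read counts there; 1 of 4 monocyte, 1 of 3 neutrophil and 1 of 2 plasmacytoid dendritic cell markers were lower, and the part of these cells was not tested.

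In control retinae alone Ifi27l2a was the 1 member called (-3.65, adjusted p = 0.023, 0.727% of all genes), and it lost its call without mouse 1, 2, 5, 12, 13, 14 or 15, where the count was 0. In Tgfbr2ΔEC retinae 0 members were called (limma, 0.512% of all genes lower; 1 at an unadjusted p under 0.05, where 3.95% of all genes were), the lowest p being that of Ifi27l2a at -1.80 (adjusted p = 1). Oas2 in retina had 52.9, 7.96, 15.3, 14.9 and 79.7 in control – PLX, 94.9, 7.92, 11.1, 10.97 and 4.78 in Tgfbr2ΔEC – PLX, 9.15, 4.44, 3.40, 8.09 and 3.96 in control + PLX and 7.09, 12.2, 0.98, 2.79 and 5.45 in Tgfbr2ΔEC + PLX. Mice 1, 5 and 6 held the high values, and in Tgfbr2ΔEC mice the difference was -1.42 (adjusted p = 1). Zbp1, at -1.20 in Tgfbr2ΔEC retinae (adjusted p = 1), was called lower over both genotypes without mouse 4, which made the count 2. The interaction of genotype and PLX passed the test for 0 members in retina (0% of all genes; 0 at an unadjusted p under 0.05, where 2.44% of all genes were), with the lowest unadjusted p for Ifi27l2a at 1.85, Cmpk2 at 0.60 and Oas3 at 1.26 (adjusted p = 1 for each).

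Across tissues, 35 of 37 members were higher in choroid than in retina (limma over all 40 libraries, adjusted p at or under 0.05), where 40.8% of all 24317 genes tested were higher. The median difference was 2.63 on the log2 scale and the range 0.13 to 6.70. Ifi27l2a differed most, by 6.70, followed by Ifitm3 (4.98), Oas2 (4.70), Mx1 (4.61) and Zbp1 (4.50). Stat2 (0.13, adjusted p = 0.199) and Irf7 (0.32, adjusted p = 0.101) did not pass the test, and Cmpk2 did so narrowly (0.33, adjusted p = 0.0262), with its call lost without mouse 1, 4 or 16. Cell-type markers differed between the tissues too: 15 of 15 mononuclear phagocyte markers were higher in choroid, with a median of 5.91 on the log2 scale, as were 4 of 4 monocyte markers (7.22), 5 of 5 markers of retinal pigment epithelium and melanocytes (6.46), 4 of 5 endothelial (3.59), 4 of 4 neutrophil (4.02), 3 of 3 plasmacytoid dendritic cell (3.09) and 5 of 6 T, B and NK cell markers (3.34), and 10 of 10 neural retina markers were lower (-6.14). Their part in the difference of the members was not tested. Stat2 had 1085 to 2683 normalised read counts in the choroids and 1056 to 2404 in the retinae, which overlapped almost wholly. Ifitm3, which had the lowest p of the members, had 3639 to 6415 in the choroids, with a median of 4974, and 77.0 to 365 in the retinae, with a median of 179. The tissues did not overlap either for Helz2 (1229 to 2245 against 62.9 to 189), Bst2 (1172 to 2062 against 47.8 to 222), Ifi35 (538 to 889 against 43.7 to 138), Parp14 (929 to 2294 against 147 to 457) and Xaf1 (369 to 934 against 61.5 to 181). Their log2 differences were 3.77, 3.90, 2.82, 2.64 and 2.58.

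Levels between genes were compared per kilobase of exon. In choroids without PLX the order began with Ifitm3, at 4130 normalised read counts per kilobase, then Bst2 (1426), Ifi27l2a (976), Ifit3 (595), Isg15 (435) and Ifit3b (381), and ended with Oasl1 (41.5), Oas3 (28.9) and Ifi44 (28.1). In choroids with PLX it began with Ifitm3 (3808), Bst2 (1207), Ifit3 (782), Ifi27l2a (617), Ifit3b (419) and Isg15 (367), and ended with Oasl1 (19.4), Oas1a (18.5) and Oas3 (6.18). In retinae without PLX it began with Stat2 (256), Ifitm3 (165), Ifit3 (149), Irf7 (133), Irf9 (131) and Ifit3b (120.3), and ended with Ifi44 (3.32), Oas1a (3.24) and Oas3 (1.66). In retinae with PLX it began with Stat2 (228), Ifit3 (135), Irf9 (118), Ifitm3 (109), Irf7 (108.7) and Ifit3b (97.3), and ended with Mx1 (1.57), Oas2 (1.29) and Oas3 (0.801). The order of neighbours was not tested.

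**Figure D4:**
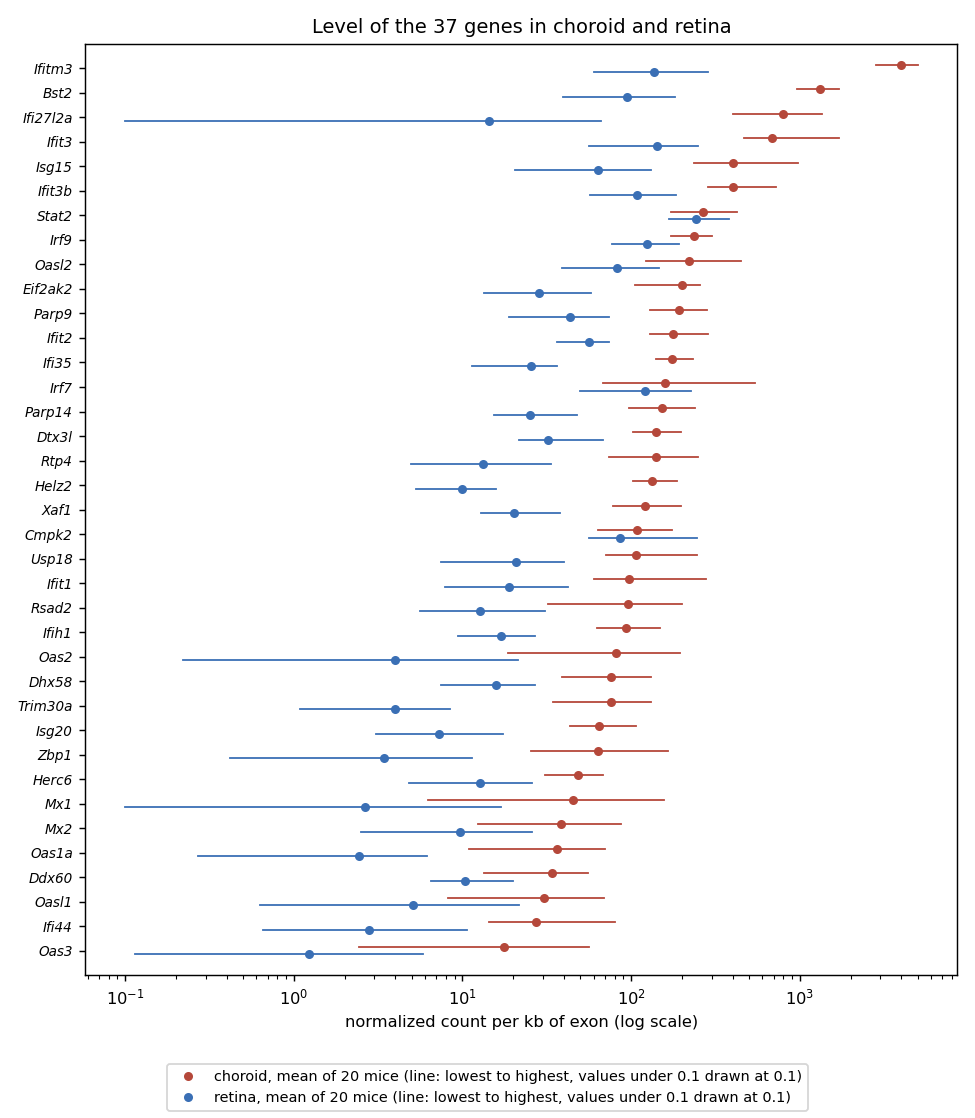
Level of each of the 37 genes per kilobase of exon on a log axis in choroid and in retina, with the mean of 20 libraries as a point and the lowest and highest library as the ends of the line. Ifitm3 is highest in choroid, at 3969, and Stat2 in retina, at 242.

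Whether the difference with PLX was the same in both tissues was tested in a fit over all libraries. The interaction passed the test for 0 of 37 members (limma), where 1.37% of all genes passed, and 4 members had an unadjusted p under 0.05, where 10.2% of all genes did. Ifi27l2a had the lowest p, at 2.03 (unadjusted p = 0.00166, adjusted p = 0.0896), its difference with PLX being larger in retina, and it was called without mouse 10, 11 or 17, with a count of 1 each. Oas3 followed at -1.68 (adjusted p = 0.184), its difference being larger in choroid, then Ifitm3 at 0.53 (adjusted p = 0.457) and Ddx60 at -0.55 (adjusted p = 0.483).

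The members varied together between mice of one group. After the group mean was taken from each value, the correlation of a member with the mean of the other 36 over the 20 choroids had a median of 0.81 and a range from 0.397 to 0.968, and 34 of 37 were above 0.5. In retina the median was 0.657, the range 0.11 to 0.863, and 24 of 37 were above 0.5. These describe libraries whose members share depth and tissue composition, and in choroid mouse 17 weighs on them. Over the 19 choroids without mouse 17 the median was 0.673, the range 0.179 to 0.937, and 27 of 37 were above 0.5. The genes outside the list whose deviations were most like those of the members were Rnf213 (0.956), Phf11d (0.883), Sp100 (0.876), Slfn8 (0.866) and Samd9l (0.864) in choroid, and Gbp2 (0.907), Gbp3 (0.902), Lyz2 (0.878), Ifi202b (0.877) and H2-Aa (0.862) in retina, each over 20 libraries. Without mouse 17 the genes most like the members in choroid were Rnf213 (0.903), Trim34a (0.861), Znfx1 (0.850), Iigp1 (0.820) and Phf11d (0.815). Between the tissues of a mouse the mean deviation of the members had r = 0.289 and rho = 0.105 over 20 mice, and r = -0.066 without mice 3 and 17.

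The level of the members was set beside that of the mononuclear phagocyte markers within each diet, over 10 mice each. In retinae without PLX the correlation was r = 0.951 (rho = 0.915) and stayed at 0.90 without mice 5 and 10. In the same retinae the members had r = 0.909 (rho = 0.964) with the monocyte markers and r = -0.633 (rho = -0.685) with the neural retina markers. In retinae with PLX the correlation with the phagocyte markers was 0.588 (rho = 0.442) and -0.147 without mice 11 and 17. In choroids it was 0.087 (rho = 0.268) without and 0.163 (rho = 0.134) with PLX, the latter 0.067 without mouse 17. The monocyte markers had r = 0.258 in choroids without PLX and 0.533 with PLX, the latter 0.033 without mouse 17. For the neural retina markers r was -0.443 in choroids without and -0.303 with PLX. These are descriptions of libraries that share depth and cell content, with members that some phagocytes also express.

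**Figure D5:**
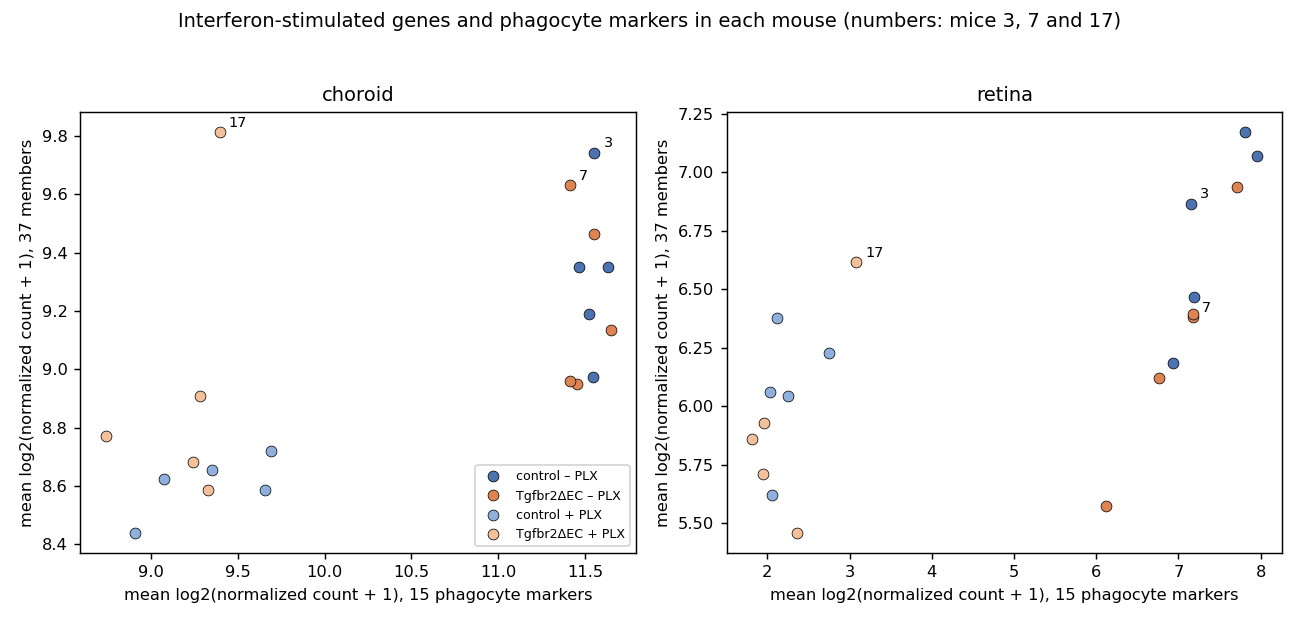
Mean log2 level of the 37 genes against that of the 15 mononuclear phagocyte markers in each mouse, choroid and retina, coloured by group, with mice 3, 7 and 17 numbered. In choroid the PLX mice form a separate cloud to the left in which mouse 17 is the highest point, at 9.81; in retina the mice without PLX spread along a rising line.

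The rest of the interferon pathway was taken from lists of ligands, receptors, signalling factors, regulators, sensors and further induced genes. Of 21 listed ligand genes, 1 was abundant enough to test in choroid and 0 in retina, and 0 were called. The shares of all genes lower with PLX were, as above, 5.06% in choroid and 1.08% in retina over both genotypes. Of 6 receptor chains, 4 were lower with PLX in choroid, among them Ifnar1, which binds type I interferon (-0.28, adjusted p = 0.004, limma), and Ifngr1, which binds interferon gamma (-0.35, adjusted p = 0.00047); in retina 0 were. Of 10 JAK-STAT and IRF factors 2 were lower in both tissues, Irf5 (-1.57 in choroid, -1.93 in retina) and Irf8 (-1.17 and -1.07), transcription factors prominent in myeloid cells. Of 9 negative regulators 2 were lower in choroid, Ptpn6 (-1.74), a phosphatase of blood cells, and Ptpn2 (-0.23), and 0 in retina. Of 15 sensors and adaptors 6 were lower in choroid and 2 in retina; the endosomal sensors Tlr7 (-2.76 in choroid, -4.48 in retina) and Tlr9 (-2.02 and -3.32) were lower in both, and Cgas, which detects cytosolic DNA, in choroid (-0.76). Of the 14 tested guanylate-binding and immunity-related GTPases, which interferon gamma induces strongly, 0 were lower in either tissue over both genotypes, with a median of -0.13 in choroid. Of 4 induced chemokines in choroid and 3 in retina 0 were called. Of 60 other interferon-stimulated genes 22 were lower in choroid, such as Epsti1 (-1.88), Phf11b (-1.77) and Ifi207 (-1.59), and of 58 in retina 7 were, the same 3 genes at -3.04, -3.03 and -3.03 among them. In none of these lists was a gene higher with PLX over both genotypes. Within control choroids, with 3.15% of all genes lower, the counts lower were 3 receptors, 2 signalling factors, 1 negative regulator, 4 sensors and 20 other interferon-stimulated genes. Within Tgfbr2ΔEC choroids, with 3.5% of all genes lower, they were 1, 2, 1, 2 and 7, and 2 genes were higher, where 0.559% of all genes were, Tgtp1 (0.81, adjusted p = 0.0426) and Apol9b (1.29, adjusted p = 0.0248). Without mouse 17 the Tgfbr2ΔEC counts lower were 1, 2, 1, 2 and 13, with 2.87% of all genes lower. In that fit 0 were higher, with Tgtp1 at 0.85 (adjusted p = 0.0583) and Apol9b at 1.09 (adjusted p = 0.0784). Over both genotypes, with 4.95% of all genes then lower, 1 of the 4 chemokines and 25 of the 60 other interferon-stimulated genes were lower. The counts of the other lists were the same as with all mice. By genotype 0 genes of these lists were called in either tissue or diet (limma).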

How the data were processed

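Choroid and retina of 20 mice were sequenced as stranded poly(A) RNA libraries, 40 in all. The authors checked reads with FastQC 0.11.5, quantified transcripts with Salmon 1.10.1 against GRCm39, and normalised the estimated gene counts with DESeq2 1.36.0. The deposited table holds these normalised read counts, a signal of sequencing depth scaled by library and not whole reads: 45.6% to 71.7% of low values lay within 0.1 of a whole number of reads, so that no reads were recovered and no count model was run. Precision was read from the spread between mice. The table holds both tissues, and the comparison of tissues assumes that they were scaled together. The paper analysed the tissues separately after quantification, and whether the scaling was joint was not checked.

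Genes with a mean of at least 1 in a tissue were tested on log2(normalised read count + 1) by limma 3.58.1 (R 4.3.3), which let the prior variance follow the mean, with the 4 groups in 1 fit per tissue, or 8 groups for comparisons of tissues. All p-values were two-sided, adjusted by Benjamini-Hochberg over all genes tested, and called at or under 0.05. Fold changes of low genes are understated on this scale. The PLX comparison in choroid was tested on simulated data, with values drawn independently for each gene. These held no outlying mouse and no retina.

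Groups came from the labels, and the mouse from the library name. Whether a mouse number pairs the tissues was checked by correlating the deviations of all genes from the group means, with r from -0.112 to 0.178 and a median of 0.069, so that the numbering rests on the library names alone.

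The 37 members, the pathway lists and the marker lists were chosen with earlier results of these data known. Values in every mouse are given for members called, at most 6 with the lowest p per direction, or for members among the 3 with the lowest p where none was called. Some of these 3 have only their difference, and in the comparison of tissues ranges are given instead. Those of Ifi27l2a, Irf7, Ifit1 and Ifit3 over all choroids were added after the values were seen. Positions are from GENCODE release 39 (GRCm39), in which 53700 of 54307 genes were found. Similar transcripts were sought with blastn 2.17.0. Promoters are from RefSeq (GRCm38.p6), where 27 of 37 members matched. Alternatives changed the pseudocount, the filter on low values, the scaling, the variance estimate, the covariates, the samples in the fit and the block on the mouse, and left out each mouse in turn. Leaving out mice 15 and 17 together was added after the data were seen.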

Additional observations from a re-analysis of the deposited data

Results flagged for a closer look

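Within each group of 5 mice the highest or the lowest value of a member was listed where its gap to the nearest other mouse, divided by the range of the group, was above 0.71, which chance gives in about 1 of 20 groups. Over 296 groups of values, where chance would give about 14.8, there were 48. The 14.8 holds for independent values with a normal spread, whereas these were unlogged read counts of genes that vary together. The share over all genes was not computed, so the count is not a result about the members.

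Mouse 17, in the Tgfbr2ΔEC + PLX group, held 25 of them, all as the highest of its group. In choroid these were, with the gap as a share of the range, Dhx58 (0.859), Eif2ak2 (0.72), Helz2 (0.758), Ifi44 (0.832), Ifit1 (0.728), Ifit2 (0.736), Irf7 (0.828), Isg15 (0.81), Oas1a (0.849), Oas2 (0.843), Oas3 (0.88), Oasl1 (0.805), Oasl2 (0.759), Parp9 (0.841), Rtp4 (0.791), Usp18 (0.742) and Xaf1 (0.846). In retina they were Ifi27l2a (0.858), Ifit1 (0.866), Ifit3 (0.739), Isg15 (0.726), Mx1 (0.864), Oas3 (0.799), Rsad2 (0.847) and Rtp4 (0.793). These values are not independent, since the genes share the library and vary together. The results of the choroid without this mouse stand beside those with it in the report.

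Among control – PLX choroids mouse 3 stood apart as the highest for Irf7 (0.818), Mx2 (0.845) and Parp9 (0.777), and mouse 5 as the lowest for Eif2ak2 (0.881) and Xaf1 (0.837). Mouse 7, in the Tgfbr2ΔEC – PLX group, was the highest choroid for Ifit3b (0.775). Of the control + PLX choroids, mouse 12 was the highest for Bst2 (0.818) and Ifi27l2a (0.713) and mouse 13 the lowest for Rsad2 (0.716).

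In control – PLX retinae mouse 1 was the highest for Mx1 (0.783) and Oas3 (0.743), mouse 3 for Rtp4 (0.789) and mouse 5 for Cmpk2 (0.838) and Ifi27l2a (0.754). In Tgfbr2ΔEC – PLX retinae it was mouse 6 for Ifi44 (0.868), Oas2 (0.93) and Oas3 (0.74). Of the control + PLX retinae, mouse 13 was the highest for Parp9 (0.807) and mouse 14 for Ddx60 (0.759), Mx1 (0.812), Rsad2 (0.81) and Trim30a (0.796); Mx1 in mouse 14 was at 38.3 normalised read counts where the other 4 mice had 7.20 or less. Mouse 16 was the highest Tgfbr2ΔEC + PLX retina for Ifi44 (0.74).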

How the results depend on the processing

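The 12 members called with PLX in choroid and Ifi27l2a in retina kept their direction in 29 of 29 alternatives. Some estimates of members not called changed sign, such as that of Ifit1 with PLX in choroid, which was -0.15 without mouse 17. Counts of members called moved with the mice left out one at a time. They ranged from 10 to 17 for the difference with PLX in choroid, from 6 to 14 in control choroids, from 2 to 6 in Tgfbr2ΔEC choroids, from 1 to 2 in retina, from 0 to 1 in control retinae, from 34 to 35 for choroid against retina and from 0 to 1 for the interaction of tissue and PLX. With mice 15 and 17 left out together, chosen after seeing the data, 6 members were called in Tgfbr2ΔEC choroids and 1 (Ifi27l2a) in the interaction of tissue and PLX. A pseudocount of 5 in place of 1 called 1 member (Oas3) in that interaction; the cause was not tested. With the mouse as a replicate block over both tissues, the counts were 35 for choroid against retina and 0 for the interaction. The counts by genotype and of the interaction of genotype and PLX were 0 under all alternatives. Levels near 3 reads, as of Ifi27l2a, Mx1 and Oas3 in retina, limit what could be detected there.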
